A study of Mus musculus with 6 samples.

Results

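The genes described here are 8 genes of central nervous system myelin (Mbp, Mobp, Cldn11, Mal, Mag, Mog, Cnp and Ugt8a) together with Klk6, which encodes a protease made by oligodendrocytes. They are 9 of the 52550 genes in the deposited count table, taken by symbol from the authors' comparison table. They were selected on their fold changes of TAF15 OE over Control, so these differences are given as a description, without a test. RNA was measured by sequencing whole hippocampus of 6 male C57BL/6J mice, 1 mouse per library. In 3 mice (TAF15 OE) an adeno-associated virus (AAV) labelled AAV-CaMKIIα-TAF15 had been placed by stereotaxic injection in CA1 on both sides. The other 3 mice (Control) had been given a control AAV at the same site. Injection was at 8 weeks of age in all 6, with 31 days stated as the time in the labels. The CaMKIIα promoter is one of excitatory forebrain neurons and is not an oligodendrocyte promoter, and all 6 mice had both surgery and a virus.

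Myelin is the stack of membrane that oligodendrocytes wrap around axons in the brain, and it speeds nerve conduction and supports the axon. Its inner faces are held together by basic proteins, its lamellae are sealed by tight junctions, and its outer leaflets are rich in galactolipids, so that structural proteins, adhesion proteins and lipid enzymes are made together while a sheath is built or kept. KLK6 is a secreted trypsin-like serine protease that in the central nervous system is made mainly by oligodendrocytes, is raised around injury and inflammation, and can cut myelin basic protein and activate protease-activated receptors. Transcription of the myelin genes depends on the factors SOX10 and MYRF, while STAT factors carry cytokine signals to the genome.

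Sequence just upstream of the start was available in RefSeq's promoter table (GRCm38.p6) for 8 of the 9 genes, as 11 windows, and 4 stretches are shown because they hold the letters searched for, on either strand. The letters were ACAAAG (a SOX-type motif), CTGGCAC (a MYRF-type motif) and TTCNNNGAA (a STAT-type motif), and no match overlapped another. Capitals mark every match to any of the 3 motifs, and each sequence reads 5′ to 3′ on the gene's own strand. The stretches of Klk6, Mobp and Cnp are cut at the annotated gene start, to 205, 215 and 215 bases. Distances run to the RefSeq start, at the end of the full window of 250 bases. For Klk6, Mobp and Cnp that end lies beyond the printed sequence.
Klk6 (chr7:43824294-43824498, plus strand): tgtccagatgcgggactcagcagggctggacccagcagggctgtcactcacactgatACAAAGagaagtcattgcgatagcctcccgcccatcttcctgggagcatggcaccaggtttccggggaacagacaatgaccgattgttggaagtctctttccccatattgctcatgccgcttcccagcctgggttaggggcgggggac
Mag (chr7:30914923-30915172, minus strand): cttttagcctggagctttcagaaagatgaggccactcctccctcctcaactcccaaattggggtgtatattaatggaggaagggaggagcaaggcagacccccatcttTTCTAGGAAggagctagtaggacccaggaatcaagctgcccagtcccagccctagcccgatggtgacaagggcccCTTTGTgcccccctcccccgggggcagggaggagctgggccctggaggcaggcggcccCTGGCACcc
Mobp (chr9:120149492-120149706, plus strand): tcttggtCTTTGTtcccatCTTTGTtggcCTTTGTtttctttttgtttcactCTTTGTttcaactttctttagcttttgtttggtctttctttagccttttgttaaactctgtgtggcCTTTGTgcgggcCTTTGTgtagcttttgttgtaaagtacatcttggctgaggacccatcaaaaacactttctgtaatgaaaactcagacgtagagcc
Cnp (chr11:100574689-100574903, plus strand): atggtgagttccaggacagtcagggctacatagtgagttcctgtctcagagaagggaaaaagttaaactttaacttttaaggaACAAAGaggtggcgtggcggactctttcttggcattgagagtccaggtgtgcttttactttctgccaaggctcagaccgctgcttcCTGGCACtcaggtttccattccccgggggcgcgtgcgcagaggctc

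The stretch upstream of Klk6 held 1 SOX-type match, 193 bases before the RefSeq start, and no match to the other motifs. The window of Mag shown held 1 match to each of the 3 motifs, with the MYRF-type match 9 bases and the SOX-type match 67 bases before that start. Mobp held 6 SOX-type matches between 120 and 243 bases before its RefSeq start, all of them as CTTTGT on the printed strand. Cnp held a SOX-type match 167 bases and a MYRF-type match 81 bases before its RefSeq start. The SOX-type letters thus stood in 4 of the 8 genes, against 18.6% of the 27025 genes with a window, and the MYRF-type letters in 2 of 8, against 4.83% of genes. The STAT-type letters stood in 1 of the 8, Mag, against 8.13% of genes. The windows of Mog, Cldn11, Mal and Ugt8a, all shown in the table at the same length of 250 bases, held none of the 3, which says only that these letters are not in these windows. The table was not used for Mbp.

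The deposited tables give 1 count for each gene as a whole, not by exon or transcript. Klk6 (ENSMUSG00000050063) lies on chromosome 7 from 43824499 to 43832030 on the plus strand, within a row of kallikrein genes, has 4 annotated transcripts and overlaps no other gene. Mag, on the same chromosome from 30899176 to 30914873 on the minus strand, overlaps none, and neither do Mal (chromosome 2, 127633226 to 127656695, minus), Cldn11 (chromosome 3, 31149920 to 31164324, plus) or Ugt8a (chromosome 3, 125865271 to 125938619, minus). Mobp (chromosome 9, 120149707 to 120181484, plus), Mog (chromosome 17, 37010743 to 37023398, minus), Cnp (chromosome 11, 100574904 to 100591729, plus) and Mbp (chromosome 18, 82475146 to 82585637, plus) each overlap 1 other annotated gene. For Cnp this is the protein-coding gene Dnajc7 on the other strand, and since strandedness was not given, reads of the 2 cannot be told apart where they overlap. The positions are of GRCm38, and for all 9 genes those in the authors' table equalled GENCODE M21. The length behind each gene's FPKM (the count scaled by the gene's length and the library's size) was the sum of its annotated exonic bases for 8 of the 9 genes, for example 1513 bases for Klk6 and 4072 for Mag, and 8403 against 8469 bases for Mbp.

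The libraries held between 14965464 and 16067000 counts, and 16758 genes were tested. At a Benjamini-Hochberg adjusted p below 0.05 in edgeR's quasi-likelihood test, 1562 genes rose (9.32%) and 997 fell (5.95%) in TAF15 OE, together 15.3%, and with libraries scaled by total counts alone 1838 rose and 716 fell. Taf15 stood at 254 ± 16.1 CPM in TAF15 OE and 59.4 ± 5.64 CPM in Control, where CPM is the count scaled by the library's TMM-adjusted size and values are mean ± SD over 3 mice. Ttr, made by the choroid plexus, had 1356, 4140 and 4477 CPM in the TAF15 OE libraries 1, 2 and 3 and 89.3, 4273 and 3839 CPM in the Control libraries 1, 2 and 3. TAF15 OE 1 and Control 1 were therefore also left out together. Counting error is small for the 8 myelin genes, each of which had at least 577 counts in every library.

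All 8 myelin genes were higher in TAF15 OE than in Control by a similar factor, between 1.27-fold (Mal) and 1.44-fold (Mag), and Klk6 was 8.60-fold higher. The 8 log2 fold changes had a median of 0.44 and an SD of 0.063 between genes, while the median over all tested genes was 0.03. Their standard errors (0.089 to 0.15) reflect the spread between mice, which the 8 genes shared in part. They are therefore no yardstick for differences between these genes. Of the 9 genes, 6 passed the edgeR test upward, where 9.32% of all tested genes did. In 7 of the 9 every TAF15 OE library lay above every Control library, as in 19.1% of all tested genes. Both counts, and the likeness of the 8 fold changes, come from the comparison that chose the genes. In whole hippocampus a higher level can come from more oligodendrocytes or from more RNA per oligodendrocyte. As levels are relative to all counts, it can also come from less RNA of other cells or from the tissue taken. These cannot be told apart here.

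**Figure D1:**
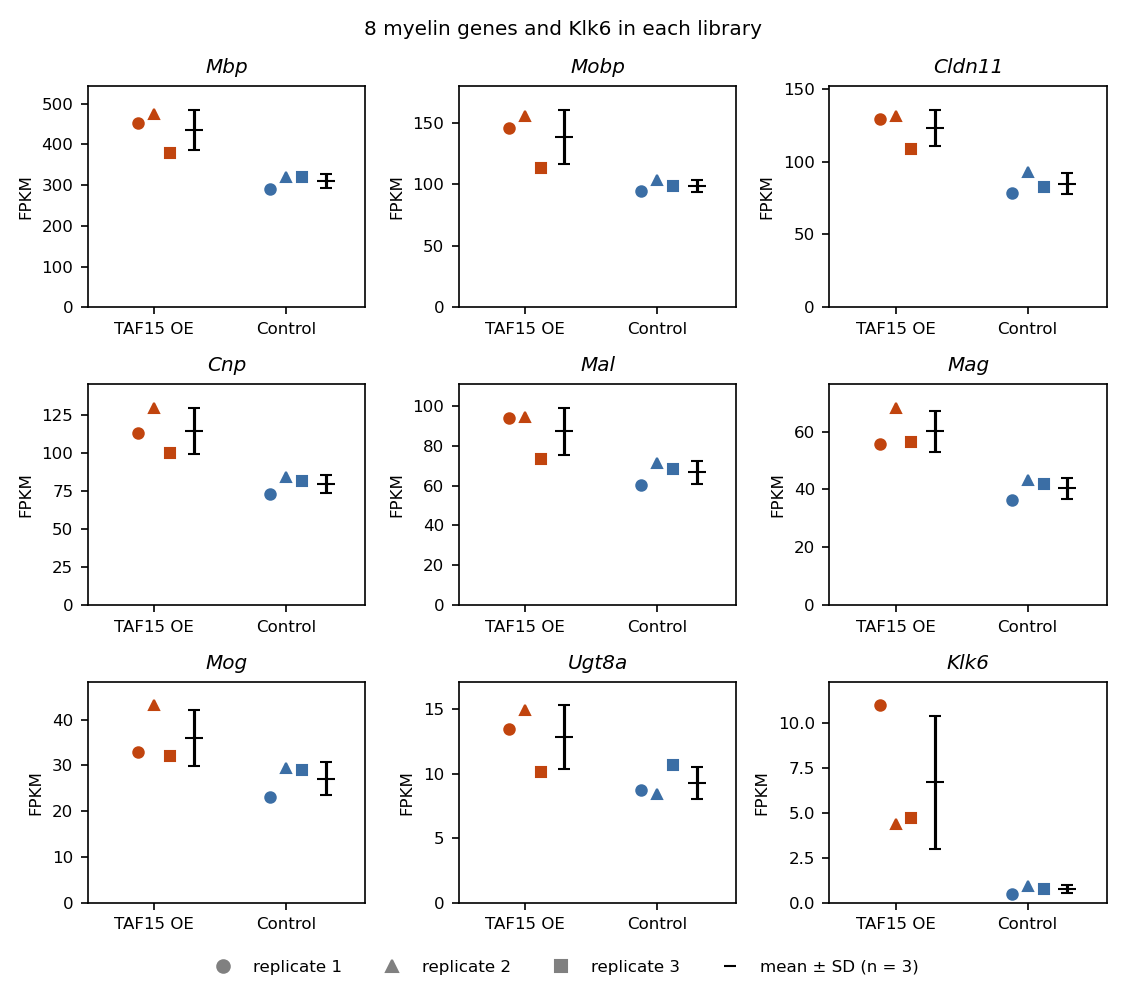
FPKM (vertical axes, each starting at 0) of the 8 myelin genes and Klk6 in the 3 TAF15 OE libraries (left, orange) and the 3 Control libraries (right, blue), with the mean ± SD of each group in black. TAF15 OE 3 is the lowest of its group for the myelin genes other than Mag, where TAF15 OE 1 is just below it, while for Klk6 TAF15 OE 1 stands apart at 10.99 FPKM.

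Compared per unit of length, the 9 genes spanned a wide range of abundance. Mbp, the main basic protein of compact myelin, was the most abundant, at 436 ± 49.7 FPKM in TAF15 OE and 310 ± 16.1 FPKM in Control, and ranked 49 of 30821 genes by its mean. Mobp followed with 138 ± 22.2 FPKM in TAF15 OE and 98.6 ± 4.61 in Control, then Cldn11 (123 ± 12.6 and 84.7 ± 7.24), Cnp (114 ± 15.1 and 79.6 ± 5.77), Mal (87.4 ± 12.0 and 66.8 ± 5.82) and Mag (60.2 ± 7.09 and 40.4 ± 3.61), each with TAF15 OE given before Control. Mog, at 36.0 ± 6.15 FPKM in TAF15 OE and 27.1 ± 3.57 in Control, and Ugt8a, at 12.9 ± 2.46 and 9.30 ± 1.23, were the least abundant of the myelin genes. Klk6 was the lowest of all, with 6.70 ± 3.72 FPKM in TAF15 OE and 0.75 ± 0.22 FPKM in Control, and ranked 9435 of 30821. The order of the mean levels was the same in both groups. In Control the only neighbours in that order whose libraries overlapped were Cldn11 and Cnp. In TAF15 OE the libraries of Mobp and Cldn11, of Cldn11 and Cnp, and of Ugt8a and Klk6 overlapped, the last because Klk6 reached 10.99 FPKM in TAF15 OE 1 while Ugt8a stood at 10.2 FPKM in TAF15 OE 3.

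Mbp and Mobp encode small basic proteins that lie at the cytoplasmic faces of compact myelin. Mbp stood at 3791, 3930 and 3113 CPM in TAF15 OE 1, 2 and 3 and at 2546, 2686 and 2726 CPM in Control 1, 2 and 3. The groups did not overlap, and the lowest TAF15 OE library was 1.14 times the highest Control library. The log2 fold change was 0.44 (SE 0.093). Mobp stood at 998, 1048 and 756 CPM in TAF15 OE 1, 2 and 3 and at 670, 709 and 682 CPM in Control 1, 2 and 3. Here TAF15 OE 3 came within 1.07 times the highest Control library, while the other two TAF15 OE libraries lay well above it. Its log2 fold change was 0.44 (SE 0.11). The 3 Control libraries differed little in both genes, with a coefficient of variation of 3.56% for Mbp and 2.95% for Mobp, against 12.1% and 16.8% in TAF15 OE.

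Cldn11 encodes the claudin of the tight junctions between myelin lamellae, and Mal a proteolipid of the glycolipid-rich membrane domains that myelin proteins travel in. Cldn11 stood at 242, 241 and 198 CPM in TAF15 OE 1, 2 and 3 and at 153, 174 and 157 CPM in Control 1, 2 and 3, with no overlap and a log2 fold change of 0.49 (SE 0.089). Mal stood at 261, 259 and 199.3 CPM in TAF15 OE 1, 2 and 3 and at 174, 199.5 and 192 CPM in Control 1, 2 and 3. The groups of Mal overlapped, since TAF15 OE 3 was level with Control 2. Its log2 fold change of 0.34 (SE 0.10) was the smallest of the 9 and became 0.20 without TAF15 OE 1 and Control 1.

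Mag and Mog are adhesion proteins of the immunoglobulin superfamily, Mag on the innermost membrane that faces the axon and Mog on the outermost lamella. Mag stood at 227, 274 and 224 CPM in TAF15 OE 1, 2 and 3 and at 154, 176 and 172 CPM in Control 1, 2 and 3. Its groups did not overlap, the lowest TAF15 OE library was 1.27 times the highest Control library, and its log2 fold change of 0.53 (SE 0.090) was the largest of the 8 myelin genes. Mog stood at 55.9, 72.3 and 53.4 CPM in TAF15 OE 1, 2 and 3 and at 40.7, 50.2 and 50.0 CPM in Control 1, 2 and 3. The groups were separated by a margin of 1.06 times, TAF15 OE 2 alone stood well above the Control libraries, and the log2 fold change of 0.36 (SE 0.13) became 0.20 without that library.

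Cnp encodes the cyclic nucleotide phosphodiesterase of the cytoplasmic channels of the sheath, and Ugt8a the transferase that makes galactosylceramide, the main glycolipid of myelin. Cnp stood at 411, 465 and 353 CPM in TAF15 OE 1, 2 and 3 and at 276, 306 and 301 CPM in Control 1, 2 and 3. There was no overlap, and the log2 fold change was 0.48 (SE 0.095). Ugt8a stood at 61.1, 66.7 and 44.9 CPM in TAF15 OE 1, 2 and 3 and at 41.4, 38.3 and 49.2 CPM in Control 1, 2 and 3. TAF15 OE 3 lay below Control 3, so the groups overlapped, and Ugt8a had the widest standard error of the 8 (log2 fold change 0.42, SE 0.15).

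The 8 myelin genes tended to vary together from library to library. Together they made up 0.605%, 0.646% and 0.507% of all counts in TAF15 OE 1, 2 and 3 and 0.390%, 0.433% and 0.427% in Control 1, 2 and 3. All 3 TAF15 OE libraries were above all 3 Control libraries, with 0.586 ± 0.072% in TAF15 OE and 0.417 ± 0.023% in Control, a ratio of the means of 1.41. In CPM, TAF15 OE 3 was the lowest of its group for 8 of 8 genes and TAF15 OE 2 the highest for 6 of 8. Within Control, replicate 1 was the lowest for 7 of 8 and replicate 2 the highest for 6 of 8. Once the library's own mean over the 8 genes was taken off the centred log2 CPM, no gene departed from it by more than 0.19 in any library (Ugt8a in Control 2). The largest departures of Ugt8a, Mog (0.18) and Mag (0.16) were above the pooled within-group SD of that mean, 0.15. Cnp departed by no more than 0.033 and Mbp by no more than 0.043. Each gene is itself part of the mean. The share of Mbp in the summed FPKM of the 9 genes was 43.0 ± 0.38% in TAF15 OE and 43.3 ± 0.77% in Control, a difference smaller than the spread within Control.

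Klk6 had 260, 99 and 115 counts in TAF15 OE 1, 2 and 3 and 12, 22 and 18 counts in Control 1, 2 and 3. This was 16.6, 6.51 and 6.98 CPM in TAF15 OE and 0.81, 1.46 and 1.20 CPM in Control, a mean of 10.03 ± 5.70 CPM in TAF15 OE and 1.16 ± 0.32 CPM in Control. The groups did not overlap: the lowest TAF15 OE library was 4.46 times the highest Control library, and TAF15 OE 1 was 2.55 times TAF15 OE 2. The log2 fold change was 3.10 (SE 0.45), and 0.221% of the tested genes, 37 in number, had one of at least 3. The authors' deposited table gives an 8.51-fold change for Klk6, and 1.24-fold (Mal) to 1.41-fold (Mag) for the 8 myelin genes. It marks Klk6 as significant and none of the 8 myelin genes, by a rule not stated. Its adjusted p-value was below 0.05 for 7 of the 9 genes, not for Ugt8a or Mog. Among the fits that left out 1 library, the log2 fold change was the smallest without TAF15 OE 1 (2.51). It was 2.31 when Control 1 was left out with it, and 2.04 on the log2(FPKM + 1) scale.

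Within TAF15 OE, the libraries ranked differently for Klk6 and for the myelin genes. Per 10000 counts of the 8 myelin genes there were 27.5 Klk6 counts in TAF15 OE 1 (95% exact Poisson interval 24.2 to 31.0), 10.2 in TAF15 OE 2 (8.32 to 12.5) and 14.1 in TAF15 OE 3 (11.7 to 17.0). The Control libraries had 2.01 (1.04 to 3.51), 3.36 (2.11 to 5.09) and 2.77 (1.64 to 4.38) in Control 1, 2 and 3. These intervals cover counting error within a library only, not the spread between mice. None of the TAF15 OE intervals met a Control interval, which is a description, since Klk6 was chosen for its rise in this comparison. TAF15 OE 3, the lowest of its group for the 8 myelin genes, had the second highest ratio, and TAF15 OE 2, the highest for 6 of them, had the lowest ratio of its group. The mean ratio was 17.3 ± 9.04 in TAF15 OE and 2.71 ± 0.68 in Control, a 6.37-fold difference, which was 10.1-fold for TAF15 OE 1 alone and 4.49-fold for the mean of TAF15 OE 2 and 3. With the counts of 30 other myelin protein genes below the line in place of the 8, it was 6.85-fold.

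**Figure D2:**
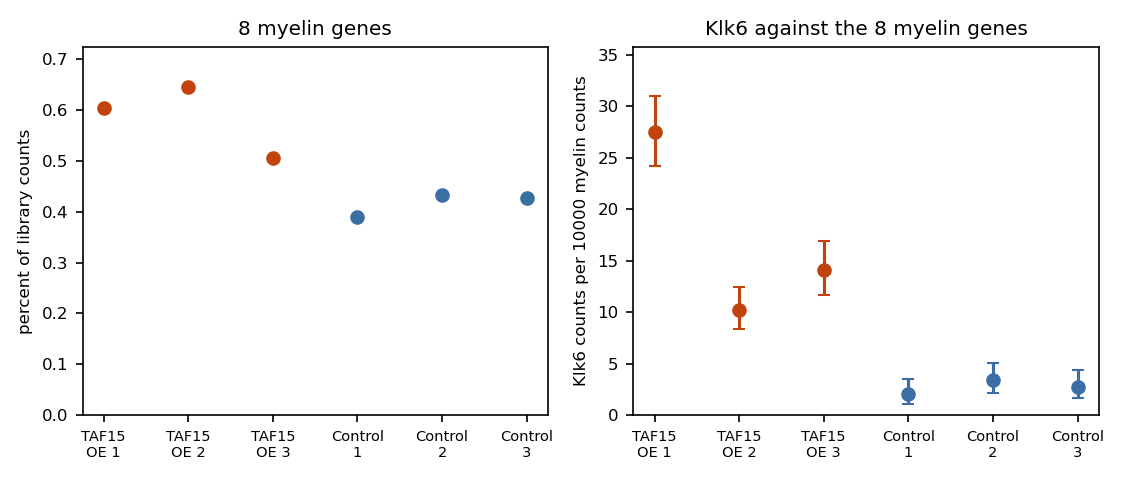
Left, the share of all counts taken by the 8 myelin genes, in percent, for the 3 TAF15 OE libraries (orange) and the 3 Control libraries (blue). Right, Klk6 counts per 10000 counts of those 8 genes, with 95% exact Poisson intervals as bars. The share lies between 0.507% and 0.646% in TAF15 OE and between 0.390% and 0.433% in Control, while the ratio reaches 27.5 in TAF15 OE 1.

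TAF15 OE 1, the library with the most Klk6, was also the highest in some immune transcripts but not in others, and their part in the result was not tested. H2-D1, a class I histocompatibility gene, stood at 843 CPM in TAF15 OE 1 and 283 and 341 CPM in TAF15 OE 2 and 3, against 155 to 218 CPM in Control. The leukocyte phosphatase gene Ptprc stood at 46.3 CPM in TAF15 OE 1 and 19.1 and 23.4 in TAF15 OE 2 and 3, against 7.61 to 9.53 in Control. The B cell gene Cd79a was instead the highest in TAF15 OE 3, with 37, 26 and 59 counts in TAF15 OE 1, 2 and 3 and 14, 6 and 8 in Control 1, 2 and 3. The summed level of the 9 leukocyte markers was likewise the highest in TAF15 OE 3, at 131, 113 and 193 CPM in TAF15 OE 1, 2 and 3 and 38.8, 14.1 and 19.3 CPM in Control 1, 2 and 3. By the root mean square difference of centred log2 CPM over the 6 libraries, the 8 genes nearest to Klk6 among 12888 candidates were Gimap3, C3, Cst7, Cd22, Cxcl5, Gimap4, Cxcl13 and Slc43a3, with differences between 0.27 and 0.44. By the same measure the genes nearest to the mean of the 8 myelin genes, among 10183 candidates, included Prob1, Stab1, Rhobtb3, Plin3, Ppp1r14a, Fbxo32 and Plekhb1, with differences between 0.040 (Prob1) and 0.059 (Plekhb1). The measure includes the difference between the groups, on which Klk6 and the 8 myelin genes were chosen. It therefore does not show likeness within a group. The 8 genes near Klk6 had log2 fold changes of 2.44 (Cxcl13) to 3.54 (C3). C3 did not pass in 5 of the fits that left out 1 library.

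**Figure D3:**
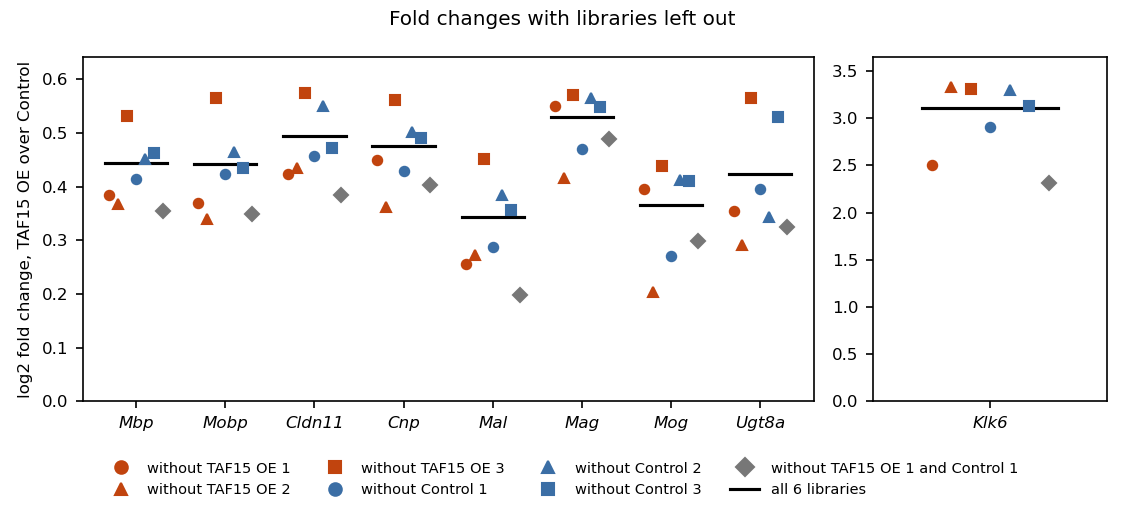
log2 fold change of TAF15 OE over Control (vertical axes, different scales left and right) with all 6 libraries (black lines) and with each library, or TAF15 OE 1 and Control 1 together, left out (points). All points are above 0, those of the 8 myelin genes between 0.20 and 0.58, and Klk6 falls to 2.51 without TAF15 OE 1 and 2.31 without TAF15 OE 1 and Control 1.

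Leaving out 1 library changed the size of the differences but not their sign. The fold changes of all 9 genes were positive in each of the 17 alternative fits. For the 8 myelin genes, leaving out TAF15 OE 3 gave the largest values, from 0.44 (Mog) to 0.58 (Cldn11) on the log2 scale. Leaving out TAF15 OE 2 gave the smallest for 6 of them, from 0.20 (Mog) to 0.42 (Mag), and leaving out TAF15 OE 1 the smallest for Mal (0.26) and Cldn11 (0.42). Without TAF15 OE 1 and Control 1 together, the 8 log2 fold changes lay between 0.20 (Mal) and 0.49 (Mag), with Mbp at 0.35, and 5 of the 9 genes passed the test upward, where 7.05% of all tested genes did. The number of the 9 that passed the test upward was 3 without TAF15 OE 2, where 5.65% of all tested genes did, and 8 without TAF15 OE 3, where 6.54% did.

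Other myelin protein genes showed the same direction for the most part, which is described by counts and not tested as a list. Of 30 such genes 17 rose and 0 fell, and 26 had a positive log2 fold change, with a median of 0.42 against 0.03 over all tested genes. The count that rose was 7 without TAF15 OE 2 and 13, with a median of 0.31, without TAF15 OE 1 and Control 1 together, and 1 gene fell in 5 of the alternatives. By the smallest p, the 4 leading genes were Cd9 (log2 fold change 1.19, SE 0.11, adjusted p = 0.000149), Gsn (1.06, adjusted p = 0.00142), Tspan2 (0.62, adjusted p = 0.00172) and Tmem88b (0.61, adjusted p = 0.00219). Cd9 and Tspan2 are tetraspanins and Gsn an actin-severing protein, and Cd9 and Gsn are also made by other cells of the brain. Opalin, a sialylated protein of central myelin, rose by 0.65 (SE 0.17, adjusted p = 0.0359), and this call was lost without TAF15 OE 1 or 2 or Control 1 or 2 (adjusted p between 0.0640 and 0.129) and without TAF15 OE 1 and Control 1 together (0.0562). Trf stood near 1 CPM in all libraries and shares its locus with Gm20425, listed at 0 throughout, so its count is uncertain; both were named after their values were seen.

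**Figure D4:**
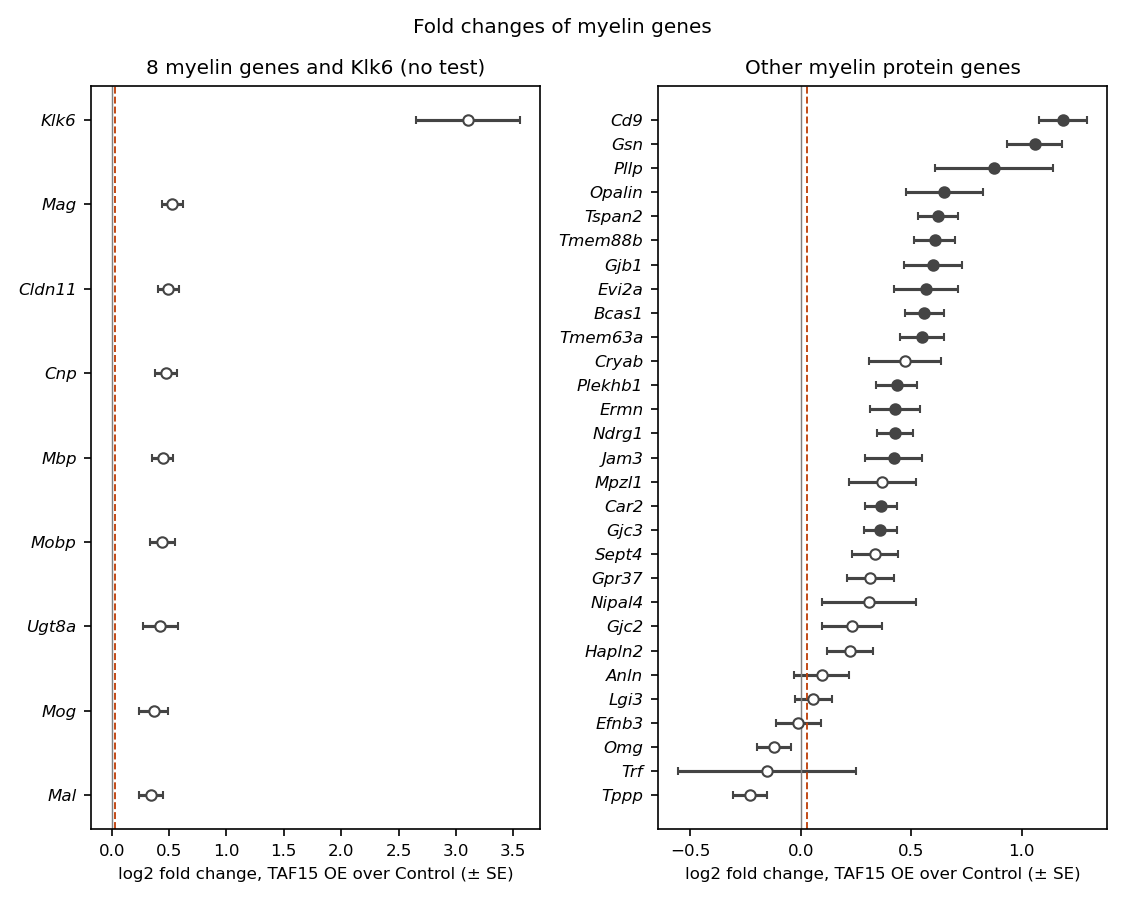
log2 fold change ± SE of TAF15 OE over Control (horizontal axes, different scales) for the 8 myelin genes and Klk6 (left, no test) and for 29 of the 30 other myelin protein genes (right, filled where the adjusted p was below 0.05). The dashed line is the median of all tested genes, 0.03. The 8 myelin genes lie between 0.34 and 0.53, Klk6 at 3.10, and 16 of the 29 others shown are filled, all of them right of 0.

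Lipid enzymes, transcription factors and stage markers of the lineage are given by their counts. The RNA was of whole hippocampus, so the cells that made each transcript were not identified. Of 16 enzymes and carriers of myelin lipids 5 rose and 0 fell (median 0.30, with 2 rising without TAF15 OE 2 or without Control 1), led by the ceramide synthase gene Cers2 (0.48, SE 0.081, adjusted p = 0.00360). Of 12 oligodendrocyte transcription factor genes 2 rose, Sox10 (0.32) and Tcf7l2 (0.76), with a median of 0.28. Neither passed without TAF15 OE 2 or without Control 2 (Sox10 adjusted p = 0.0928 and 0.0509, Tcf7l2 0.178 and 0.136), and Tcf7l2 also not without Control 1 (0.107) or Control 3 (0.0708). Myrf (0.30, adjusted p = 0.0608), Olig1 (0.25) and Olig2 (0.11) did not pass, and their groups overlapped; without TAF15 OE 3, 4 of the 12 rose, Myrf (adjusted p = 0.0310) and Olig1 (0.0332) among them. The precursor markers Pdgfra (0.14, adjusted p = 0.366) and Cspg4 (0.13, adjusted p = 0.553) did not pass, while 4 of the 12 precursor genes did (median 0.30, 2 of them without TAF15 OE 2), led by the protease inhibitor gene Serpine2 (0.65, SE 0.067, adjusted p = 0.000267). Of 10 genes of newly formed oligodendrocytes 3 rose and 1 fell (median 0.37, with 1 rising without Control 2). The gene that fell, Rras2 (log2 fold change -0.40, SE 0.11, adjusted p = 0.0337), passed without TAF15 OE 1 but in none of the other 5 fits that left out 1 library (adjusted p between 0.0522 and 0.128). Enpp6, a marker of that stage, rose by 0.87 (SE 0.16, adjusted p = 0.00487) and Gpr17 had a value of 0.34 that did not pass (adjusted p = 0.288), but passed with the replicate number as a block (0.36, adjusted p = 0.0305) and without the filter on low counts (0.31, adjusted p = 0.0228). Of 12 genes of mature oligodendrocyte subtypes 8 rose and 1 fell (median 0.51, with 4 rising without TAF15 OE 2), led by Anxa5 (0.94, SE 0.071), Il33 (0.92, SE 0.078) and Apod (1.07, SE 0.11), while Jph4 fell by 0.49 on the log2 scale. Enpp2, which mature oligodendrocytes and the choroid plexus both make, stood at 1054, 2554 and 2755 CPM in TAF15 OE 1, 2 and 3 and at 194, 2036 and 2339 CPM in Control 1, 2 and 3, low in the libraries with little Ttr; it was named after its values were seen.

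Genes reported in oligodendrocytes of injured or diseased tissue were higher in TAF15 OE where they passed the test. Of 12 such genes 7 rose and 0 fell, with a median of 1.32, which was 0.76 with 11 rising when TAF15 OE 1 and Control 1 were left out, where 7.05% of all tested genes rose. Serpina3n, a serine protease inhibitor, stood at 284 ± 25.9 CPM in TAF15 OE and 78.4 ± 13.1 CPM in Control (log2 fold change 1.86, SE 0.12, adjusted p = 5.73e-05). The complement gene C4b stood at 583 ± 162 CPM in TAF15 OE and 175 ± 27.4 CPM in Control (1.74, SE 0.24, adjusted p = 0.0102), a call lost with the replicate number as a block (adjusted p = 0.111) and kept in the other alternatives. Astrocytes and microglia make Serpina3n, C4b and others of this list too. Of the proteins known to meet KLK6, the inhibitor gene Serpinf2 rose by 2.66 (SE 0.25), F2r, which encodes the receptor PAR1, had a value of 0.37 that did not pass (adjusted p = 0.152), and F2rl1, which encodes PAR2, had too few counts to be tested (13, 6 and 5 in TAF15 OE, against 5, 13 and 4 in Control).

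Most other kallikrein genes were too low to be tested. Of 26 kallikrein genes listed, 2 had enough counts to be tested, Klk6 and Klk8, and 10 were listed at 0 in all libraries. Klk8, the kallikrein of hippocampal neurons, had 115, 114 and 95 counts in TAF15 OE 1, 2 and 3 and 168, 119 and 153 in Control 1, 2 and 3, a log2 fold change of -0.52 (SE 0.18) that did not pass (adjusted p = 0.0793). Klk11 had 2, 1 and 6 counts in TAF15 OE 1, 2 and 3 and 8, 6 and 7 in Control 1, 2 and 3. Klk13, named after its values were seen, had 10, 7 and 17 counts in TAF15 OE and 1, 4 and 2 in Control.

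Markers of other cells moved as well, and their part in the difference of the myelin genes was not tested. Of 9 neuronal markers 6 fell and 0 rose, with a summed level of 8563 to 9657 CPM in TAF15 OE and 11031 to 13006 CPM in Control. Of 7 astrocyte markers 5 rose (8458 to 9270 CPM in TAF15 OE, 4874 to 6104 CPM in Control), of 7 microglial markers 6 rose (560 to 774 and 310 to 353 CPM), and of the 7 leukocyte markers tested 6 rose (113 to 193 and 14.1 to 38.8 CPM), each with TAF15 OE before Control. The leukocyte count was 3 without Control 1. Of 6 endothelial markers 2 rose, with 0 rising without Control 2 and 1 without TAF15 OE 1 and Control 1 together, and of 6 choroid plexus markers 0 passed in either direction, with summed levels of 1519 to 4925 CPM in TAF15 OE and 143 to 4628 CPM in Control. Markers of the neighbouring thalamus and neocortex, which hold myelinated fibres of their own, had 1 of 6 rising in each list, Lef1 (0.83, SE 0.23) and Rorb (0.54, SE 0.14). The 6 thalamic markers had log2 fold changes between 0.00 (Slc17a6) and 0.83, with a median of 0.37, and their summed level was 106 to 120 CPM in TAF15 OE and 81.2 to 94.9 CPM in Control, without overlap. The 6 neocortical markers had a median of 0.24 and overlapping sums of 109 to 146 CPM in TAF15 OE and 119 to 126 CPM in Control. With 1 library left out Lef1 stood between 0.60 and 0.97 and Rorb between 0.39 and 0.63, and neither gene passed without TAF15 OE 2 or 3 or Control 2, nor Lef1 without Control 1 or 3 (adjusted p between 0.0539 and 0.103). The summed level of the 30 other myelin protein genes was 4288 to 5188 CPM in TAF15 OE and 3586 to 3844 CPM in Control.

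**Figure D5:**
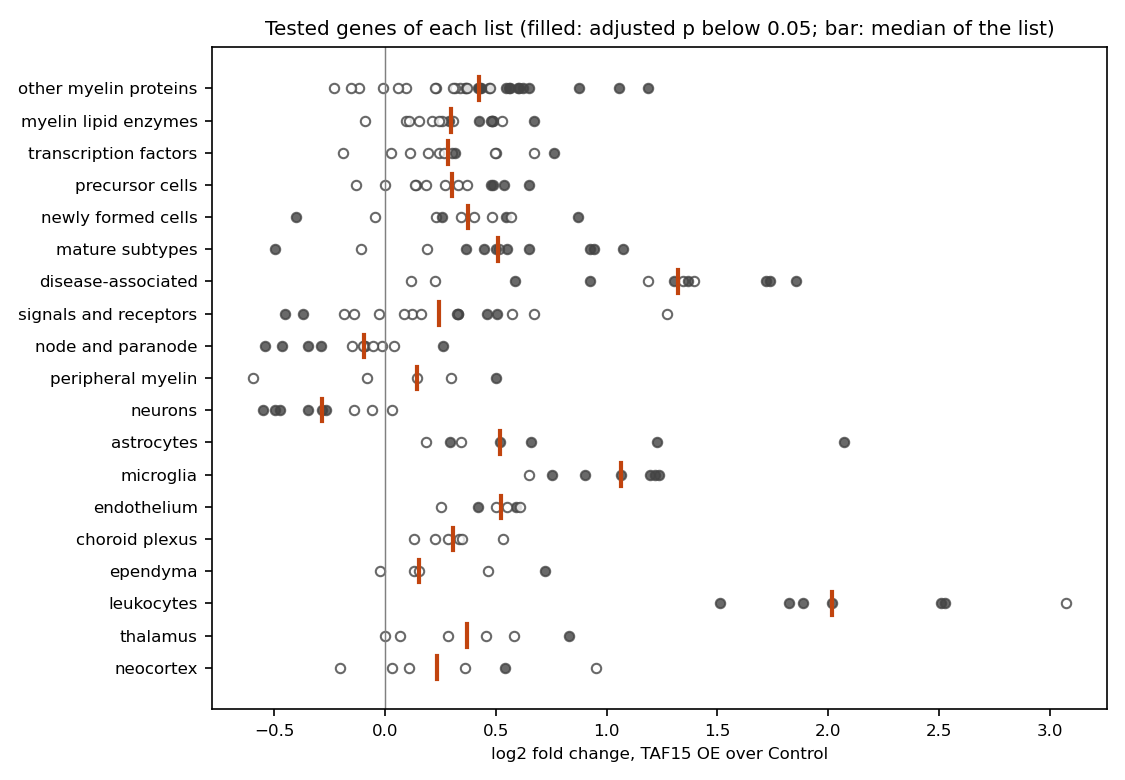
log2 fold change of TAF15 OE over Control (horizontal axis) for the tested genes of each list (rows), filled where the adjusted p was below 0.05, with the median of the list as an orange bar. Among the lists shown, the median is 0.42 for other myelin proteins and 1.32 for disease-associated genes, and is below 0 for node and paranode genes (-0.10) and neurons (-0.28).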

How the data were processed

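Hippocampal RNA of 6 mice was sequenced, with group and replicate read off each sample's title. The myelin genes, Klk6 and all lists were chosen with earlier results of these data known. CASAVA, Bowtie2 2.2.3, HISAT2 2.1.0, TopHat2 and build GRCm38 are named, per the submitters' processing notes; read counter, annotation release and strandedness are not given in the sources used here. Whole-number counts, 1 row for each Ensembl gene, make up the authors' count table. The authors' FPKM equalled counts over exonic length and library total within 1% in 100% of the values checked, in 8926 genes with more than 200 counts in every library. The authors' deposited comparison table repeats the counts and adds a normalised mean signal, a fold change as a ratio and as log2 (TAF15 OE over Control), and a p-value and adjusted p-value of an unnamed test. In all, 24 gene symbols turned into dates were restored by identifier, Sept4 among them.

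edgeR 4.0.16 (R 4.3.3) was run on the counts: genes kept by filterByExpr (minimum count 10, minimum total 15), TMM scaling, a quasi-likelihood F-test on group alone, and Benjamini-Hochberg adjustment over 16758 genes, called below 0.05. The biological coefficient of variation was 13.1%. CPM and FPKM are given as mean ± SD, n = 3 mice. The alternatives were DESeq2 1.42.0 and its size factors, total counts, filtering by a mean of 1 CPM or not at all, limma-voom and limma-trend (limma 3.58.1) on log2 FPKM (pseudocount 1 or 0.1), with a mean of at least 0.5 FPKM or no filter. Further alternatives were the replicate number as a block, each library left out, and TAF15 OE 1 and Control 1 left out together. On counts simulated for 16758 genes, edgeR recovered 30% of genes changed by 0.5 on the log2 scale, 66% at 1 and 98% at 2, with 13 false calls of 125. No 2 libraries were duplicates (smallest chi-square per degree of freedom 5.15). The 9 genes and a short set fixed by name are named whatever their result, and from each list up to 4 called genes with the smallest p. Genes of like pattern had a mean of at least 10 CPM for the myelin genes, or a mean log2 CPM of at least 1 for Klk6. Values of 2 genes that the naming rule covers are not reported here. Promoters came from RefSeq (GRCm38.p6), positions from GENCODE M21. Figures were drawn with matplotlib 3.10.9.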

Additional observations from a re-analysis of the deposited data

How the results depend on the processing

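The fold changes of all 9 genes stayed positive under each of the 17 alternatives, and the median of all tested genes moved by less than 0.1 in each. The Klk6 log2 fold change was 2.04 on log2(FPKM + 1) with and without the filter, where a pseudocount shrinks low values by construction, 2.31 without TAF15 OE 1 and Control 1, and 2.51 to 3.33 with 1 library left out. Of the 30 other myelin protein genes, 8 were called, 8 higher, on log2(FPKM + 1) without a filter, and 7 to 15 were called, 7 to 15 higher, with 1 library left out. The number lower among them was 1 without the filter, 1 with DESeq2, 1 with the replicate block, and 0 to 1 with a library left out. Over all genes the calls were 1551 (449 lower) on log2(FPKM + 1), 1630 (473 lower) on log2(FPKM + 0.1), and 669 (496 higher, 173 lower) on log2(FPKM + 1) without a filter, and 1568 were lower on counts without a filter. With 1 library left out there were 1331 to 2501 calls, 877 to 1293 higher and 365 to 1208 lower. The cause of these differences was not tested, apart from fewer libraries in the fit. With the replicate number as a block 3291 genes were called. Same-numbered libraries correlated by 0.126, 0.0776 and 0.0871 in their deviations, so the numbers were not taken as pairs; each library correlated best with its own number, a hint from the data and not the design.

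With 3 mice per group differences can be missed, and in the simulation smaller ones were missed more often. The simulation recovered 30% of log2 changes of 0.5 in genes drawn at random from all tested genes, whatever their counts. It does not give the recovery for well-counted genes such as the 8 myelin genes. The 12 to 22 Klk6 counts in Control limit how exactly its fold change is known, and so does the spread between TAF15 OE mice. The coefficient of variation of Klk6 was 56.8% in TAF15 OE and 28.0% in Control. Strandedness is unknown, which bears on Cnp and Mog.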

Other observations

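Several genes at the contact between axon and myelin were lower in TAF15 OE. Of 12 genes of the node and paranode 4 fell and 1 rose in TAF15 OE (edgeR's quasi-likelihood test, adjusted p below 0.05), with a median log2 fold change of -0.10. The gene that rose, Cntn2 (0.26, SE 0.072, adjusted p = 0.0308), did not pass without TAF15 OE 1 or 2 or Control 1 or 2 (adjusted p between 0.0990 and 0.146), nor without TAF15 OE 1 and Control 1 together (0.187). Cntnap1, which anchors the paranodal loops to the axon, stood at 199 ± 18.1 CPM in TAF15 OE and 289 ± 24.8 CPM in Control (log2 fold change -0.54, SE 0.086, adjusted p = 0.00278), with every TAF15 OE library below every Control library. Scn8a, the sodium channel of the node, stood at 301 ± 21.0 CPM in TAF15 OE and 415 ± 41.5 CPM in Control (-0.47, SE 0.085, adjusted p = 0.00514). Both are made by neurons, whose markers were also lower in TAF15 OE, and the part of those in these values was not tested. Of 16 tested genes for signals that reach oligodendrocytes 3 rose and 2 fell (1 rising without Control 2, and 1 falling without TAF15 OE 3). The 2 that fell, Lingo1 (-0.45, SE 0.063, adjusted p = 0.00144) and Rtn4r (-0.37), encode neuronal receptors for inhibitory signals of myelin (Mag is a ligand of the Rtn4r product).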
